A study of Drosophila melanogaster with 9 samples.

Results

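The neuronal Dube3a line was compared with the control that carries the Dube3a transgene alone, over all genes of the adult Drosophila melanogaster head or brain transcriptome. The libraries were chosen by genotype: 3 of the neuronal line (elav>Dube3a, driver C155 with transgene Das45) and 3 of the control (Dube3a alone, w with Das45), 6 of the 9 libraries of the series. The other 3, from a glial line (repo>Dube3a), entered the estimate of the spread and are given as values beside some genes. All groups carry UAS-Dube3a, and the control differs from the neuronal line in having no GAL4 driver. No library carried the driver without the transgene, so Dube3a expression, GAL4 itself, the driver insertion and the genetic background that came with it cannot be told apart. Flies were kept at 25 degrees. They were aged 3 to 5 days according to one label and about 3 days according to the design text. The material is labelled brain, while the design text describes homogenizing 15 to 25 heads per genotype. The labels do not say whether replicates came from separate crosses, so each p-value measures the spread among these libraries, which may be technical.

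Dube3a appears under the symbol Ube3a in the annotation and is the fly counterpart of UBE3A, an E3 ligase of the HECT class that attaches ubiquitin to proteins and so marks many of them for the proteasome. In humans, loss of the maternal UBE3A copy causes Angelman syndrome, and duplication of its chromosomal region is linked to autism and epilepsy. In the GAL4/UAS system a driver makes the yeast activator GAL4 in chosen cells, where it switches on a transgene placed behind UAS sites. The elav driver is active in neurons.

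Total counts ran from 35550949 to 41080491 in the 6 libraries. Levels are given as CPM, counts scaled to a library total of 1e+06 after TMM scaling, and differences as log2 fold changes, neuronal minus control, ± standard error. RNA of the eye and of other head tissues was present in the material labelled brain. The marker sums that follow are counts per 1e+06 of the library total, without TMM scaling. The 8 photoreceptor markers summed to 44173 to 60039 CPM in the control and to 44503 to 50348 CPM in the neuronal line. The 6 fat body markers summed to 86984 to 142032 and 64506 to 73191 CPM. The 5 neuron markers summed to 1407 to 1567 CPM in the control and to 1765 to 1999 CPM in the neuronal line, without overlap. The 5 muscle markers summed to 7335 to 7685 and 7793 to 11090 CPM. On this scale the groups did not overlap, but the muscle gap was narrow. The TMM factors ran from 0.9512 in control 2 to 1.159 in neuronal 1, so that gap may not hold after TMM scaling. Act88F, 1 of the 5 muscle markers, went the other way (-1.13, not called). Over the 29 tested genes of the muscle sarcomere list the groups overlapped. Their sums, after TMM scaling, were 17642 to 18085 CPM in the control and 16545 to 22838 CPM in the neuronal line. None of the neuron, fat body or muscle markers passed the test as a single gene. In such bulk RNA, a change in the number of cells of a type and a change in RNA per cell cannot be told apart. The yolk share, the part of a library's counts on the 3 yolk protein genes, was 14.1%, 8.62% and 9.26% in the control and 6.34%, 7.24% and 7.08% in the neuronal line, without overlap. The same 3 genes are among the 6 fat body markers and made up nearly all of that sum. The fat body sum and the yolk share are therefore not separate results. The gut level, the mean log2 CPM of the 33 tested genes of the gut digestive enzyme list, varied within both groups. It was 3.09, 6.20 and 2.56 in the control and 4.47, 6.25 and 6.38 in the neuronal line. In a principal component analysis of the 6 libraries the first axis held 48.4% of the variance, with control 1 and 3 at -48.7 and -50.8, control 2 at 24.2, and the neuronal libraries at -1.86, 41.5 and 35.7.

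Dube3a itself was higher in the neuronal line. Ube3a, on chromosome arm 3L, stood at 30.6, 33.8 and 39.6 CPM in control libraries 1, 2 and 3 and at 72.8, 61.5 and 76.9 CPM in the neuronal libraries. Each neuronal library lay above each control library, and the gene rose 2.03-fold (1.02 ± 0.14, edgeR adjusted p = 0.014). The call was lost without control 1, control 2, neuronal 1 or neuronal 3 (adjusted p 0.0647 to 0.0878) and with library totals as scaling (0.0839). In the glial libraries the level was 220, 189 and 219 CPM, and the difference between the driver lines passed the test (-1.57, adjusted p = 0.00063).

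The white gene w, an ABC transporter subunit that loads eye pigment precursors, is also the usual visible marker of fly transgenes. It stood at 19.5, 20.8 and 21.7 CPM in the control and at 52.6, 65.2 and 61.0 CPM in the neuronal line. The 2.88-fold rise passed the test (1.53 ± 0.13, adjusted p = 0.0017), and the call held with any 1 of the 6 libraries left out. Counts per gene do not separate a marker copy of w, or the Dube3a transgene, from the native gene. The neuronal gene elav, at whose locus the C155 driver sits, was at 57.7, 63.0 and 56.5 CPM in the control and at 79.2, 82.5 and 85.9 CPM in the neuronal line. Its groups did not overlap, but it did not pass the test (0.48 ± 0.10, adjusted p = 0.09). For repo, the transcription factor of glia, the difference was -0.06 ± 0.21 (adjusted p = 0.93).

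**Figure D1:**
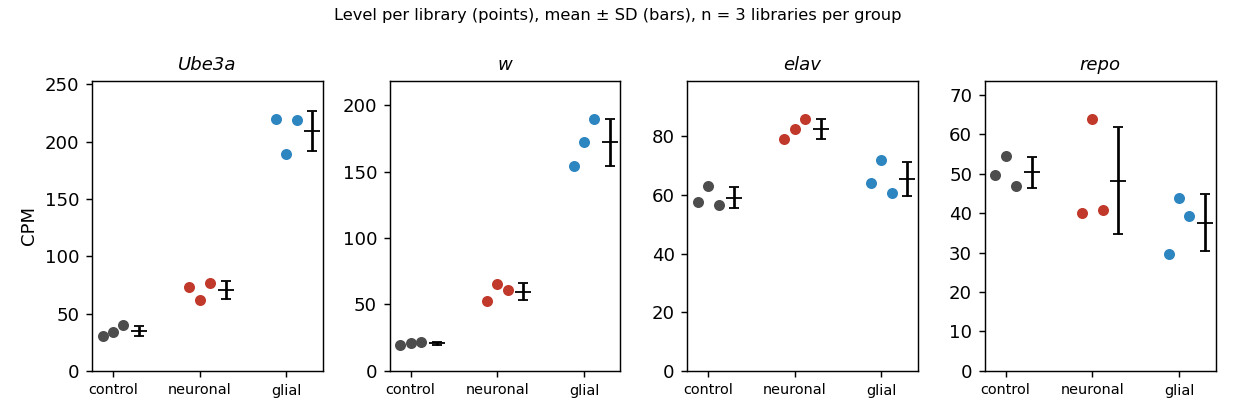
Levels of Ube3a, w, elav and repo in CPM, 1 point per library, with the mean and SD of 3 libraries beside each group. The neuronal libraries lie above the control libraries for Ube3a, w and elav and on both sides of them for repo.

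Across the transcriptome few genes passed the test. Of 11430 genes tested, 81 were called at an adjusted p under 0.05 (0.709%), 35 higher in the neuronal line (0.306%) and 46 lower (0.402%). At an unadjusted p under 0.05 there were 1518 genes (13.3%), 749 higher (6.55%) and 769 lower (6.73%). The groups did not overlap for 1224 genes with the neuronal line higher (10.7%) and 1200 with it lower (10.5%), and for each of the 81. Of the called genes, 33 were at least 2-fold higher and 33 at least 2-fold lower. The median log2 fold change was 1.68 among the genes that rose and -1.54 among those that fell.

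Of the 35 genes that rose, 15 had a control mean under 1 CPM and 2 reached a mean of 100 CPM in either group, dpy and NLaz. Among the 46 that fell, 9 reached that level: Adh, Adhr, Sod3, Rh5, Pisd, CG3246, Cyp28a5, D2hgdh and Cyp6a20. In kind, 75 of the called genes were protein coding, 5 were long noncoding RNAs and 1 was an antisense RNA. The count depended on the libraries and the tool: it was 16 to 47 with 1 control or neuronal library left out, lowest without neuronal 3, and 470 with DESeq2. With library totals in place of TMM scaling the split turned to 27 higher and 17 lower. Of the 81 calls, 38 held with the yolk share as a covariate and 47 with the gut level.

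**Figure D2:**
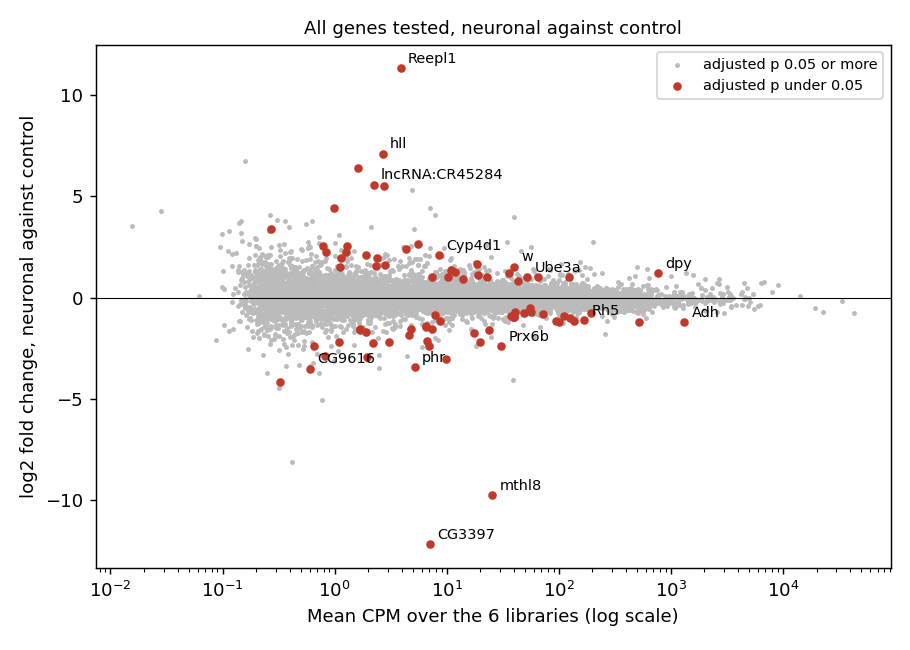
Log2 fold change, neuronal against control, against the mean CPM over the 6 libraries (log scale), 1 point per gene tested. The 81 called genes, in red, are few beside the 11430 tested, and Reepl1, mthl8 and CG3397 lie farthest from 0 among them.

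Of the 81 genes, 16 were called with any 1 of the 6 control and neuronal libraries left out. They were w, CG13722, CG16898, Cyp4d1, CG13705, lncRNA:CR42646, lncRNA:CR45284 and Reepl1 among those that rose, and CG3397, mthl8, phr, Prx6b, TotM, CG6654, Naxd and AstC-R1 among those that fell. For 29 genes the call held in none of these 6 fits, and for the other genes in some of them. Where a gene below is outside the 16, its call was lost without at least 1 library of the 6.

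**Figure D3:**
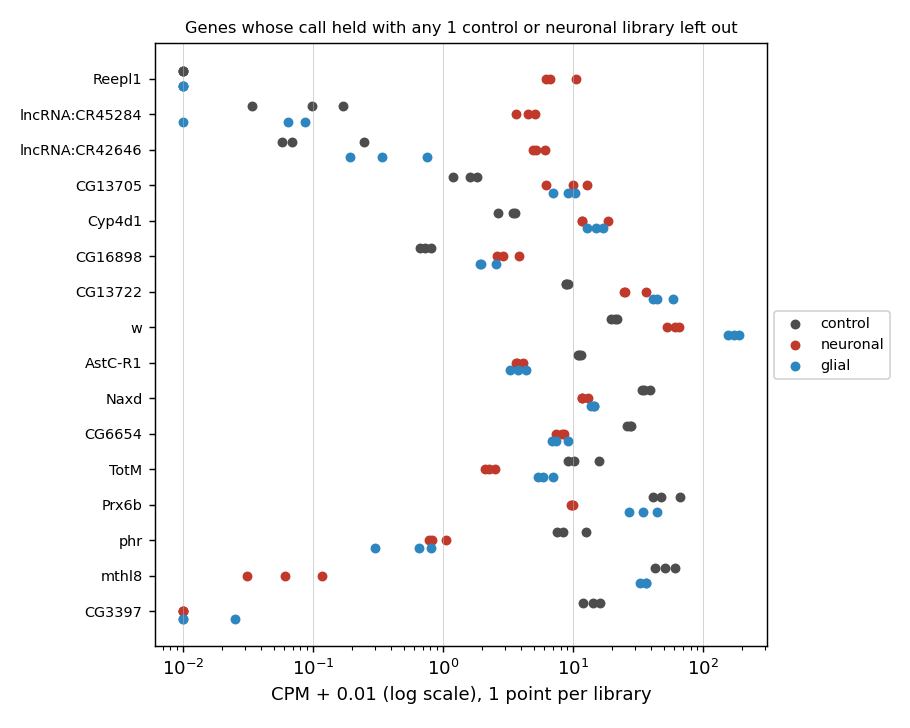
Levels of the 16 genes whose call held with any 1 control or neuronal library left out, as CPM + 0.01 on a log scale, 1 point per library, with the glial libraries below. In each row the red neuronal points and the dark control points do not overlap, and the glial points lie beside the neuronal points in some rows and beside the control points in others.

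A few genes were nearly switched off or on. CG3397, on 3R, held 536, 405 and 672 counts in control libraries 1, 2 and 3 and 0 in each neuronal library, at least 590-fold lower against a floor of 3 counts over the group. It was at 1, 0 and 0 counts in the glial libraries too, so both driver lines were at or near 0. The gene mthl8, on 3L, belongs to the methuselah-like family of G protein-coupled receptors. It stood at 51.0, 60.2 and 42.3 CPM in the control and at 0.021, 0.0512 and 0.107 CPM in the neuronal line (-9.74 ± 0.34, adjusted p = 3.6e-06). The glial libraries kept 36.1, 36.0 and 32.6 CPM, and the neuronal line differed from them by -9.19 (adjusted p = 5.6e-06).

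Reepl1, on X, belongs to a family of proteins that shape the endoplasmic reticulum. It had 0 counts in every control and every glial library and 959 counts over the neuronal libraries (6.64, 10.5 and 6.18 CPM), at least 291-fold higher than the control against the same floor. Its call was lost with the yolk share as a covariate (adjusted p = 0.088). CG14329, on 3R, rose from 0.0793, 0 and 0.169 CPM to 1.89, 1.69 and 2.10 CPM (4.41 ± 0.70, adjusted p = 0.032). Its call was lost without control 1, any neuronal library or glial 3 (adjusted p 0.0573 to 0.161).

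On arm 2L, 3 neighbouring tested genes rose together, the only run of 3 or more called neighbours in the same direction. The first, hll, encodes an acyl-CoA synthetase, which activates fatty acids. It was at 0.0529, 0.0592 and 0 CPM in the control and at 4.47, 5.88 and 5.67 CPM in the neuronal line (7.11 ± 1.06, adjusted p = 0.022). Next to it, CG18095 went from 0, 0 and 0.0963 CPM to 3.40, 2.25 and 3.995 CPM (6.41 ± 0.92, adjusted p = 0.019). The noncoding lncRNA:CR45284 went from 0.159, 0.0887 and 0.0241 CPM to 4.45, 3.63 and 5.09 CPM (5.58 ± 0.59, adjusted p = 0.0061). All 3 were near 0 in the control and in each neuronal library stood above 2 CPM. The annotations of hll and CG18095 overlap, so reads of one may be counted for the other, and the call of hll was lost without any of these 6 libraries and that of CG18095 without control 1 or any neuronal library (adjusted p 0.063 to 0.114). In the glial libraries hll stood at 4.68, 0.354 and 2.10 CPM, whereas CG18095 and lncRNA:CR45284 stayed under 0.1 CPM. A noncoding RNA elsewhere, lncRNA:CR42646 on 2R, rose from 0.238, 0.0592 and 0.0482 CPM to 6.03, 4.89 and 5.17 CPM (5.50 ± 0.65, adjusted p = 0.0074).

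Adh was the most abundant gene that fell. It encodes the alcohol dehydrogenase that breaks down dietary ethanol, and it stood at 1952, 1853 and 1709 CPM in control libraries 1, 2 and 3 and at 723, 831 and 845 CPM in the neuronal line. The groups lay far apart and the gene fell 2.30-fold (-1.20 ± 0.15, adjusted p = 0.012). Adhr, which lies next to Adh and is transcribed with it, fell by nearly the same amount (-1.18 ± 0.14, adjusted p = 0.0074). Isoforms of both held near-equal counts, except 1 of Adhr with 8 to 21 counts, so reads of the shared stretch may be divided between the names and the pair is 1 observation rather than 2. The Adh call was lost without control 1 or any neuronal library (adjusted p 0.063 to 0.074), and that of Adhr without neuronal 3 (0.0526). In the glial libraries Adh stood at 1424, 1513 and 1683 CPM, and the neuronal line was lower than the glial line (-0.94, adjusted p = 0.012).

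Further genes that fell belong to no list with several calls. Naxd, which repairs hydrated NAD(P)H, went from 33.6, 35.2 and 39.0 CPM to 12.98, 11.6 and 11.6 CPM (-1.57 ± 0.12, adjusted p = 0.00084). D2hgdh, which oxidizes a hydroxyglutarate by-product, went from 125, 145 and 152 CPM to 54.3, 63.2 and 64.8 CPM (-1.21 ± 0.14, adjusted p = 0.0074). In both the highest neuronal library was well below the lowest control library. Pisd, the phosphatidylserine decarboxylase that makes phosphatidylethanolamine, fell from 221, 167 and 175 CPM to 89.5, 69.7 and 93.8 CPM (-1.15 ± 0.19, adjusted p = 0.037). CG3246, for which no role is given here, fell from 176, 143 and 184 CPM to 75.6, 79.9 and 96.6 CPM (-0.996 ± 0.15, adjusted p = 0.021). The D2hgdh call was lost without neuronal 3 (0.0526), that of CG3246 without 5 of the 6 libraries, all but control 2 (up to 0.114), and that of Pisd without any of the 6 (up to 0.147). With the yolk share, lower in the neuronal line, as a covariate, the adjusted p was 0.027 for Adh, 0.0047 for Naxd, 0.0091 for D2hgdh, 0.056 for Pisd and 0.057 for CG3246.

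In the redox enzyme list 2 of 20 tested genes fell and none rose, so 10% were called against 0.709% of all genes, of which 0.402% fell. Prx6b, a peroxiredoxin that reduces peroxides, went from 66.6, 47.2 and 41.2 CPM to 9.79, 9.90 and 9.61 CPM (-2.40 ± 0.22, adjusted p = 0.0034). Its neighbour CG12896, annotated beside it on 2R, fell by a like amount (-2.21 ± 0.32, adjusted p = 0.019), and reads shared by similar copies could be split between them. The CG12896 call was lost without control 1 or any neuronal library (adjusted p up to 0.113). In both, all 3 neuronal libraries lay close together and below the control. Sod3, the extracellular superoxide dismutase, went from 232, 220 and 279 CPM to 159, 131 and 145 CPM (-0.75 ± 0.13, adjusted p = 0.044). Its call was lost without any single library (adjusted p up to 0.183). With the yolk covariate the adjusted p was 0.0047 for Prx6b and 0.094 for Sod3. The list's median was -0.15 against 0.00 over all genes tested.

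Cytochrome P450 genes, whose enzymes oxidize hormones, toxins and lipids, moved in both directions: 2 of 78 tested rose and 3 fell. The share called was 6.41% against 0.709% of all genes, and the list's median was 0.12. Cyp4d1 rose from 2.62, 3.46 and 3.56 CPM to 11.6, 11.7 and 18.5 CPM (2.11 ± 0.23, adjusted p = 0.0071), and Cyp6d2 from 0.211, 0.384 and 0.506 CPM to 1.51, 2.25 and 2.85 CPM (2.57 ± 0.41, adjusted p = 0.032). Cyp6a20, a gene linked to aggression in flies, fell from 130, 108 and 154 CPM to 66.0, 58.3 and 51.1 CPM (-1.16 ± 0.15, adjusted p = 0.012). Both genes that rose were of low level and the one just named was abundant. Cyp28a5 fell from 140, 125 and 171 CPM to 78.0, 76.4 and 75.3 CPM (-0.93 ± 0.14, adjusted p = 0.022). Cyp4p1 fell from 65.5, 55.5 and 62.9 CPM to 37.6, 37.1 and 34.5 CPM (-0.75 ± 0.11, adjusted p = 0.019). Of the 5, the call of Cyp4d1 held without any 1 library, and those of the other 4 were lost without 3 to 5 of the 6 control and neuronal libraries, in each case without control 1, neuronal 2 and neuronal 3 in turn (adjusted p up to 0.124). With the yolk covariate Cyp4d1 (0.021) and Cyp6a20 (0.038) kept their calls and the other 3 did not (0.054 to 0.07). In the glial libraries Cyp6a20 stood at 144, 144 and 145 CPM, and the difference between the driver lines passed the test (-1.30, adjusted p = 0.0025).

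Stress and immune genes gave 1 call in each direction among 46 tested members of the antimicrobial and humoral list (4.35% called, against 0.709% of all genes), whose median was -0.30. TotM, a Turandot protein secreted under stress, went from 15.9, 9.20 and 10.1 CPM to 2.50, 2.10 and 2.24 CPM (-2.37 ± 0.24, adjusted p = 0.0054). Drsl5, which encodes a drosomycin-like peptide, went from 1.98, 1.09 and 1.11 CPM to 4.45, 4.73 and 3.54 CPM (1.60 ± 0.29, adjusted p = 0.05 after rounding, just inside the threshold). NLaz, a lipocalin related to apolipoprotein D that is made in fat body and glia, rose from 84.6, 83.3 and 74.0 CPM to 126, 201 and 165 CPM (1.03 ± 0.18, adjusted p = 0.049). The groups did not overlap for any of the 3 genes. The calls of Drsl5 and NLaz were lost without 5 of the 6 libraries each, Drsl5 keeping its call without control 1 and NLaz without neuronal 1 (adjusted p up to 0.156 and 0.178). With the yolk covariate the adjusted p was 0.015 for TotM, 0.12 for Drsl5 and 0.11 for NLaz.

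Among DNA repair genes, phr encodes the photolyase that reverses ultraviolet damage in DNA. It fell from 8.41, 7.51 and 12.5 CPM to 1.05, 0.819 and 0.772 CPM (-3.42 ± 0.36, adjusted p = 0.0058), and its call held without any 1 library. Its annotation overlaps that of Prosalpha1, a proteasome core subunit, which fell from 51.5, 54.3 and 47.6 CPM to 26.5, 27.1 and 26.02 CPM (-0.95 ± 0.12, adjusted p = 0.012). Prosalpha1 was the only one of 32 tested proteasome subunits to be called (3.12%, against 0.709% of all genes), and the list's median was -0.06. Prosalpha1R, a related gene named here after its values were seen, fell by a like amount (-0.96 ± 0.13, adjusted p = 0.014), and reads common to the related genes may be split between them. Both calls were lost without control 1 or any neuronal library (adjusted p up to 0.0956).

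The genes nxf2, krimp and FANCI rose, and no list stands behind them. The piRNA pathway gene nxf2 rose from 20.4, 19.7 and 24.1 CPM to 60.3, 36.1 and 54.4 CPM (1.23 ± 0.21, adjusted p = 0.045). Another gene of that pathway, krimp, rose from 0.344, 0.237 and 0.289 CPM to 2.06, 0.947 and 1.17 CPM (2.25 ± 0.39, adjusted p = 0.043). FANCI, of the Fanconi anaemia repair pathway, rose from 0.608, 0.325 and 0.458 CPM to 2.10, 1.64 and 1.70 CPM (1.96 ± 0.34, adjusted p = 0.044). The neuronal libraries lay above the control libraries for each, but the calls of krimp and FANCI were lost without any of the 6 libraries and that of nxf2 without 5, all but neuronal 2 (adjusted p up to 0.193).

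Genes of cuticle and extracellular matrix were called in both directions. Among 54 tested cuticle protein genes 2 rose and 1 fell (5.56%, against 0.709% of all genes), with a list median of 0.40. Before adjustment 18 had p under 0.05 with the neuronal line higher and 5 with it lower, against 6.55% and 6.73% of all genes. The groups did not overlap for 19 with the neuronal line higher and 7 with it lower, against 10.7% and 10.5% of all genes. The list's summed level did overlap between the groups. It was 1463, 1307 and 1332 CPM in the control and 1459, 1376 and 1107 CPM in the neuronal line. Ccp84Ag rose from 0.952, 1.77 and 1.42 CPM to 5.80, 8.88 and 7.40 CPM (2.41 ± 0.30, adjusted p = 0.0098). Cpr76Bd rose from 18.6, 14.2 and 12.9 CPM to 28.1, 33.2 and 31.7 CPM (1.03 ± 0.17, adjusted p = 0.042). A gene with a related name, Cpr76Bc, fell from 2.64, 2.07 and 2.84 CPM to 0.714, 0.640 and 1.12 CPM (-1.61 ± 0.29, adjusted p = 0.049). In each of these 3 genes the groups did not overlap. The giant matrix protein gene dpy, which ties epidermis to cuticle, was the most abundant gene that rose, from 457, 388 and 556 CPM to 1130, 1030 and 1101 CPM (1.22 ± 0.20, adjusted p = 0.041). The glypican gene dlp, whose proteoglycan binds secreted signals, fell from 93.1, 97.2 and 86.9 CPM to 49.0, 59.6 and 50.3 CPM (-0.80 ± 0.14, adjusted p = 0.043). The calls of dpy, dlp and Cpr76Bc were lost without any of the 6 control and neuronal libraries, that of Cpr76Bd without all but control 1, and that of Ccp84Ag without neuronal 3 (adjusted p 0.0512 to 0.19).

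Receptor and eye genes supplied a smaller group. AstC-R1, a receptor for the neuropeptide allatostatin C, went from 10.8, 11.4 and 11.2 CPM to 4.10, 3.61 and 3.70 CPM (-1.55 ± 0.16, adjusted p = 0.0054). In the glial libraries it stood at 3.25, 4.31 and 3.78 CPM. MsR1, a myosuppressin receptor named after its values were seen, fell from 52.2, 46.2 and 53.04 CPM to 35.5, 30.5 and 27.3 CPM (-0.70 ± 0.13, adjusted p = 0.05 after rounding). Both peptide receptors were lower in each neuronal library than in any control library. Rh5, the blue-sensitive rhodopsin of a subset of inner photoreceptors, was the one call among 35 tested phototransduction genes (2.86%, against 0.709% of all genes), from 232, 197 and 267 CPM to 112, 97.9 and 110 CPM (-1.12 ± 0.20, adjusted p = 0.049). The list's median was -0.02, and the summed photoreceptor markers overlapped between the groups. Ir76a, an ionotropic receptor of the antenna, was the only called gene of 62 tested chemoreceptors (1.61%, against 0.709% of all genes). It gave -1.67 ± 0.30 (adjusted p = 0.049), and the glial line was lower than the control too (-2.53, adjusted p = 0.003). The calls of MsR1, Rh5 and Ir76a were lost without any of the 6 control and neuronal libraries (adjusted p up to 0.216).

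Several of these genes were compared with the glial line, which shares the transgene and the control libraries. In glial against control 505 of 11430 genes were called (4.42%), and in neuronal against glial 422 (3.69%). CG6654 stood at 28.0, 25.9 and 27.2 CPM in the control, at 8.57, 8.24 and 7.38 CPM in the neuronal line and at 6.85, 7.33 and 9.18 CPM in the glial line. It fell against the control in the neuronal line (-1.75 ± 0.15, adjusted p = 0.0017), and the difference between the driver lines was 0.05 (adjusted p = 0.91). For Naxd that difference was -0.24 (0.32), for AstC-R1 0.01 (0.99), for phr 0.60 (0.44), for Cyp4d1 -0.10 (0.89) and for CG13705 0.12 (0.89). None of these 6 passed, which does not show that the driver lines were equal. Those of the 6 that fell were lower than the control in the glial line too. The glial values were -1.80 for CG6654 (adjusted p = 0.0004), -1.34 for Naxd (0.00052), -1.56 for AstC-R1 (0.0011) and -4.02 for phr (0.00075). The difference between the driver lines passed the test for mthl8, Prx6b (-1.84, adjusted p = 0.0029), TotM (-1.41, adjusted p = 0.013), Reepl1, lncRNA:CR45284 and lncRNA:CR42646 (3.74, adjusted p = 0.0087). CG9616 was lower in the neuronal line than in the control (-3.51 ± 0.39, adjusted p = 0.0071, lost without neuronal 3 at 0.052) and higher in the glial line (1.94, adjusted p = 0.0097), at 1.43, 0.828 and 1.11 CPM in the control, 0.126, 0.0767 and 0.0799 CPM in the neuronal line and 4.15, 3.16 and 5.69 CPM in the glial line.

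Another 3 called genes, for which no role is given here, held their calls without any 1 library. CG13722 rose from 9.09, 8.84 and 8.74 CPM to 24.9, 24.6 and 36.1 CPM (1.68 ± 0.19, adjusted p = 0.0074). CG16898 rose from 0.714, 0.651 and 0.795 CPM to 3.84, 2.89 and 2.61 CPM (2.11 ± 0.25, adjusted p = 0.0074). CG13705 rose from 1.80, 1.18 and 1.61 CPM to 9.93, 12.7 and 6.21 CPM (2.64 ± 0.30, adjusted p = 0.0074). The control libraries were close together in all of them and below each neuronal library.

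Another 8 genes were among those with the largest decreases. CG17005 fell from 16.5, 14.6 and 21.1 CPM to 2.27, 2.33 and 1.81 CPM (-3.02 ± 0.43, adjusted p = 0.017). Osi2, of the Osiris family of membrane proteins, fell from 11.5, 11.5 and 9.75 CPM to 2.44, 2.69 and 2.26 CPM (-2.15 ± 0.35, adjusted p = 0.037). Dhc98D, a dynein heavy chain gene, fell from 4.57, 4.53 and 5.85 CPM to 1.28, 0.742 and 1.23 CPM (-2.20 ± 0.33, adjusted p = 0.023). In these 3 genes each neuronal library was below 3 CPM. CG30054 fell from 2.83, 2.54 and 5.06 CPM to 0.483, 0.460 and 0.426 CPM (-2.92 ± 0.38, adjusted p = 0.012). CG8757 fell from 2.88, 3.52 and 4.53 CPM to 0.882, 0.665 and 0.746 CPM (-2.25 ± 0.38, adjusted p = 0.042). CG31268 fell by 2.19 ± 0.34 (adjusted p = 0.03), lncRNA:CR44645 by 2.88 ± 0.49 (0.042) and CG15892 by 2.39 ± 0.42 (0.045), each to under 0.5 CPM in every neuronal library. The calls of Osi2, Dhc98D, CG8757, CG31268 and CG15892 were lost without any of the 6 control and neuronal libraries. Those of CG17005 and lncRNA:CR44645 were lost without all but control 2, and that of CG30054 without any neuronal library (adjusted p up to 0.19 over the 8 genes). The glial line was also lower than the control for CG8757 (-4.38, adjusted p = 0.0011), Dhc98D (-2.28, 0.0062) and CG31268 (-2.275, 0.0074). For the others of the 8 the glial difference from the control did not pass the test (adjusted p 0.072 to 0.86).

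Among the other genes that rose, CG31199 went from 42.7, 37.9 and 48.6 CPM to 84.1, 88.0 and 90.7 CPM (1.02 ± 0.12, adjusted p = 0.0074), and CG42260 from 30.0, 31.6 and 32.6 CPM to 51.5, 57.6 and 55.7 CPM (0.81 ± 0.10, adjusted p = 0.0088). Both had control libraries close together. CG8539 rose by 1.10 ± 0.20 (adjusted p = 0.049) and CG6026 by 2.26 ± 0.39 (0.045). Among noncoding RNAs, lncRNA:CR43635 rose from 0.952, 1.24 and 0.771 CPM to 3.65, 3.45 and 4.29 CPM (1.94 ± 0.29, adjusted p = 0.021) and asRNA:CR45139 from 0.211, 0.177 and 0.289 CPM to 1.81, 0.819 and 1.46 CPM (2.57 ± 0.42, adjusted p = 0.038). In the family of lncRNA:CR symbols 4 of 302 tested genes rose and 1 fell (1.66% called, against 0.709% of all genes). The call of CG31199 was lost without neuronal 3 (0.0531), that of CG42260 without control 1 or neuronal 3 (up to 0.0738) and those of CG8539 and CG6026 without any of the 6 libraries (up to 0.153). The call of lncRNA:CR43635 was lost without all but control 2 and that of asRNA:CR45139 without all but neuronal 2 (up to 0.167).

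Beyond single genes, 47 lists of pathway and cell type genes were counted. Of these, 12 held at least 1 called gene and 35 held none. Of the 81 called genes 18 were in any list, 1.32% of 1361 listed genes tested against 0.709% of all genes, and 63 were in none. Protein levels, on which a ubiquitin ligase acts, were not measured here. In RNA, the genes reported as Dube3a or UBE3A targets gave 0 calls of 8 tested and a median of -0.16. Among them, Atpalpha, the sodium-potassium pump subunit, gave 0.19 ± 0.15 (adjusted p = 0.64), and Pu, the GTP cyclohydrolase of pteridine and dopamine synthesis, gave -0.24 ± 0.13 (adjusted p = 0.47).

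No gene was called in 5 lists of genes used by neurons, whose medians lay on both sides of that of all genes. The median was 0.20 for 24 neuronal markers, 0.21 for 30 voltage-gated channels, 0.18 for 44 neurotransmitter receptors 0.15 for 31 genes of synaptic vesicle release and -0.14 for 43 neuropeptides, against 0.00 over all genes. In the first 4 lists the groups did not overlap, with the neuronal line higher, for 12, 14, 14 and 10 genes, against 10.7% of all genes. Of the 43 neuropeptides 1 was higher and 10 were lower in this way, against 10.7% and 10.5% of all genes. Among them Nplp2 gave -0.57 ± 0.44 (adjusted p = 0.63). The sodium channel gene NaCP60E gave 0.20 ± 0.15 (adjusted p = 0.60), the channel accessory gene unc79 0.15 ± 0.12 (0.66), the acetylcholine receptor gene nAChRbeta1 0.40 ± 0.13 (0.21), and the glutamate-gated chloride channel gene GluClalpha 0.27 ± 0.11 (0.33).

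The median was -0.23 for 87 cytosolic ribosomal protein genes, -0.16 for 69 oxidative phosphorylation genes, -0.24 for 25 fat body markers and -0.33 for 20 hemocyte markers. The single call in these 4 lists, NLaz among the fat body markers, was higher. RpS5a gave -0.35 ± 0.24 (adjusted p = 0.58) and RpS6 -0.08 ± 0.20 (0.90), and the basement membrane gene SPARC -0.67 ± 0.16 (0.11). Of the lipid genes Desat1, a fatty acid desaturase, gave -0.75 ± 0.22 (0.19), and the fatty acid synthase FASN1 -0.41 ± 0.23 (0.51). The yolk protein gene Yp3 gave -0.76 ± 0.50 (0.57). The highest median, 0.71, was that of the gut digestive enzymes, where the libraries of the neuronal line differed most, and the trypsin gene betaTry gave 0.61 ± 1.28 (0.88), which became 2.48 without control 2 and 0.05 without neuronal 2.

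**Figure D4:**
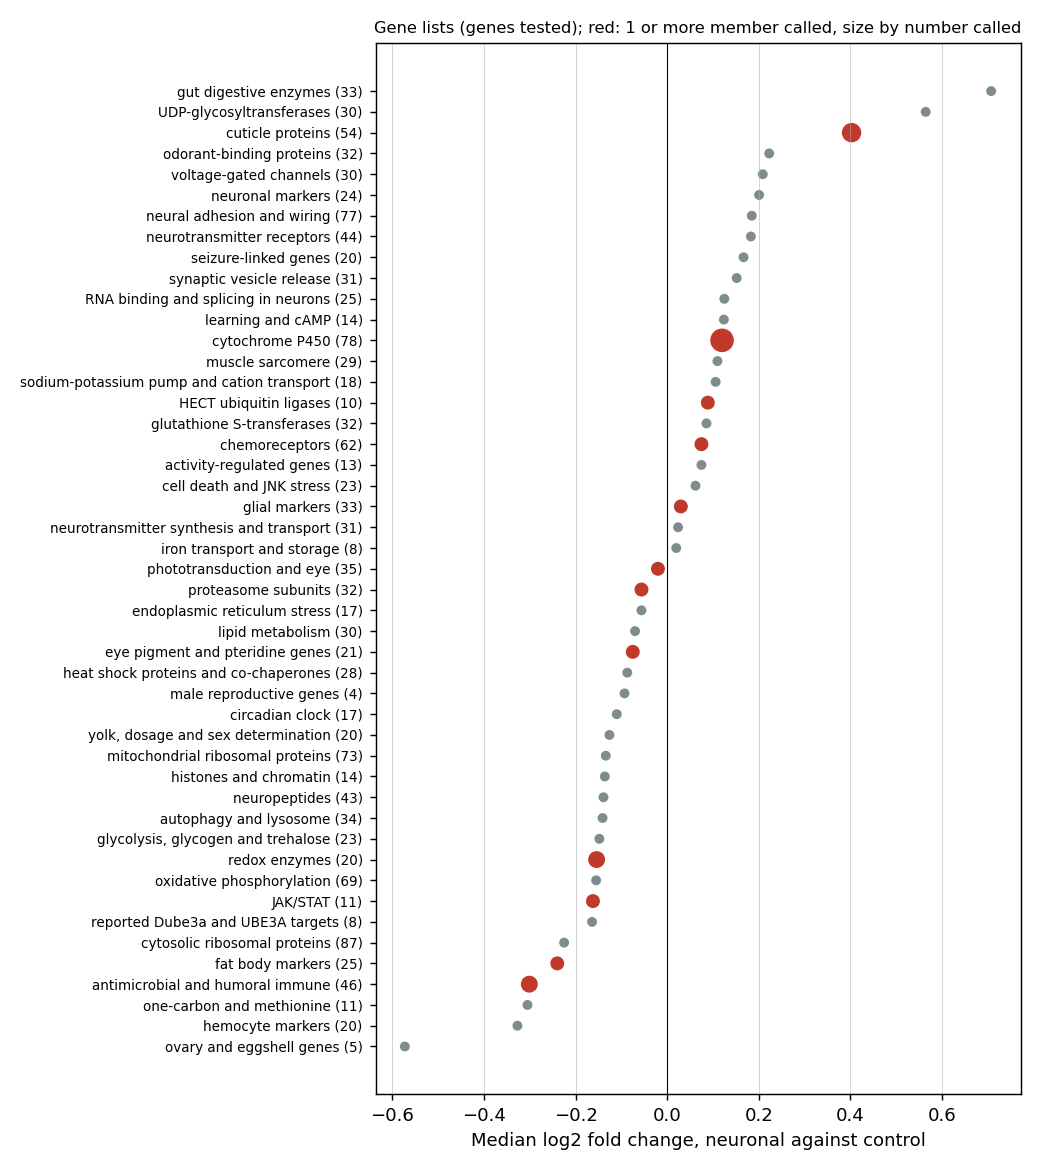
Median log2 fold change, neuronal against control, of each gene list, with the number of genes tested in brackets. Red points mark lists with at least 1 called gene, larger for more, and the neuronal markers and voltage-gated channels lie to the right of 0 and the neuropeptides to the left, each with no call.

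The log2 fold change moved with transcript length. In 5 length quintiles by the longest annotated transcript, from the shortest to the longest, the median was -0.12, -0.09, -0.04, 0.01 and 0.14. Groups that did not overlap were higher in the neuronal line for 24.6% of the longest quintile and lower for 3.57%, against 6.35% and 13.6% in the shortest quintile. Across 11338 genes, which share the same libraries and are not independent replicates, Spearman's rho of fold change and length was 0.225. Lists of neuronal markers and channels held many long genes, 21 of 24 neuronal markers and 25 of 30 voltage-gated channels being in the longest quintile, and the ribosomal genes 1 of 87. With each library's trend on length taken out, the median went to 0.07 for neuronal markers, 0.03 for voltage-gated channels and -0.12 for cytosolic ribosomal genes. In that fit 78 of the 81 calls held, among 54 higher and 48 lower, and Ube3a gave 0.98 (adjusted p = 0.0237).

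**Figure D5:**
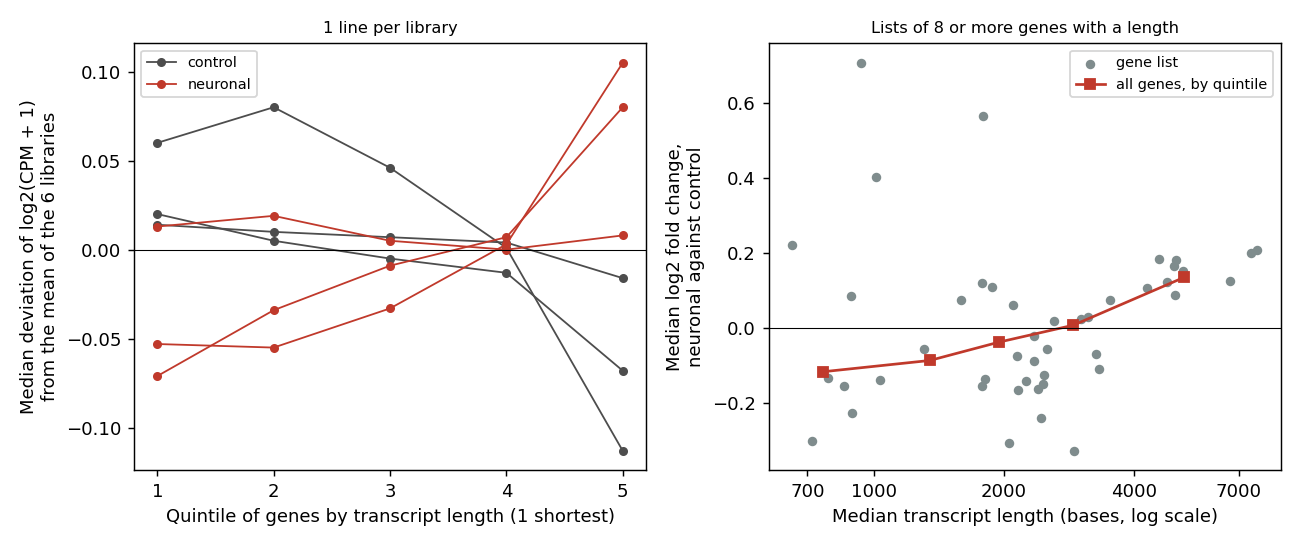
Left, median deviation of log2(CPM + 1) from the mean of the 6 libraries in each quintile of genes by transcript length, 1 line per library. Right, median log2 fold change of each list of 8 or more genes against its median transcript length, with the 5 quintiles of all genes in red. The neuronal libraries lie above the control libraries in the longest quintile, and the medians of all genes rise from -0.12 to 0.14 along the quintiles.

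The called genes were spread over the chromosome arms. The share called was 0.38% on X, 0.747% on 2L, 0.895% on 2R, 0.86% on 3L, 0.672% on 3R and 0 of 88 genes on the fourth chromosome. None of the 20 nearest tested genes around elav, Ube3a or w was called, and their medians were 0.09, 0.05 and 0.04. Of the 7 called genes on X, D2hgdh, Cyp4d1 and CG17777 stood at ranks 194, 198 and 209 of 1840 tested genes in annotation order. The others were w at rank 275, CG3566 at 491, CG15892 at 498 and Reepl1 at 942. CG17777 and CG3566 were named for their place. CG3566 fell (-0.92). CG17777 rose (1.58 ± 0.28, adjusted p = 0.049), a call that none of the 6 fits without a control or neuronal library kept (adjusted p up to 0.202). The gene elav, at rank 33, stood apart from them. Of all called genes, 29 overlap another annotated gene, among them w, dpy, nxf2, Cyp6d2, Cyp4p1, CG6654, dlp and Ir76a. The share of all tested genes that do so is not given here. How reads from shared stretches were assigned is not given, so they may be counted for either gene.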

How the data were processed

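RNA was sequenced on an Ion Torrent instrument, per the labels. The authors deposited raw counts for 31838 RefSeq transcripts in 9 columns, all used. STAR and DESeq2 are named in the submitters' processing notes without a role. No coordinates are printed, as the genome build, like the counting program and the strand handling, was not given in the sources used here. By accession, 31673 of these transcripts matched 15248 genes in the RefSeq annotation of Release 6 plus ISO1 MT. Counts were summed per gene, and the 165 unmatched entries (0.473% to 0.685% of counts in the 6 libraries) were kept as they were.

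The test was the quasi-likelihood test of edgeR 4.0.16 (R 4.3.3), after TMM scaling and filterByExpr (minimum count 10, minimum total 15), fitted to all 9 libraries with group as the only term. Of the genes and entries, 11430 were tested and 3983 were not. Every adjusted p is from Benjamini-Hochberg over all genes tested, and under 0.05 counted as a call. The standard error is the size of the log2 fold change divided by the square root of F. The common biological coefficient of variation was 30.5%. The script was tested on simulated data. Alternatives were DESeq2 1.42.0, limma-voom (limma 3.58.1), other scalings and filters, the 6 libraries alone, covariates for the yolk share and gut level, single transcripts, a replicate block, genes left out, each library left out and, added after seeing the data, a length trend taken out.

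Always named were Ube3a, elav, repo and w. The others were up to 15 called genes per direction with the largest change, a mean of at least 20 counts and no overlap, 10 with the smallest p and 10 with the highest CPM, up to 4 called members per list (or the 2 most abundant members where none was called, of which only some are printed, chosen after their values were seen), members of families with 3 or more calls, runs of neighbouring calls, and genes at 3 counts or fewer in every library of one group and 20 or more in every library of the other. Members and lists were chosen with earlier results of these data known, and 86 listed members were not found in the table.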

Additional observations from a re-analysis of the deposited data

How the results depend on the processing

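Of the 81 calls (35 higher, 46 lower), DESeq2 kept 81 among 470 (223 higher, 247 lower), and single transcripts gave 151 (68 and 83). Library totals gave 44 calls (27 and 17, 37 kept), with the median of all genes shifted to 0.06, the yolk covariate 50 (20 and 30), and the gut covariate 30 lower. The length trend, added after seeing the data, gave 54 higher. Leaving out 1 library gave 16 to 62 calls, 8 to 29 higher and 8 to 38 lower; in none did a called gene reverse. Same-numbered control and neuronal libraries deviated together with correlations of 0.376, 0.38 and -0.118, and differently numbered ones with -0.628 to 0.401. With 3 libraries a group these values cannot tell whether the numbers pair the libraries. The replicate block gave 15 calls (5 and 10) and Ube3a 1.02 (adjusted p = 0.0501). With library totals Ube3a gave 1.08 (0.0839), and with 1 library left out 0.94 to 1.13. Among genes named without a call, repo ran from -0.315 to 0.057 with 1 library left out, turning positive without neuronal replicate 1 or 3 (0.048), and turned to 0.093 with the yolk covariate, betaTry, at 0.046 to 2.475 with 1 library left out, to -0.966 with the gut covariate, NaCP60E to -0.072, unc79 to -0.071 and RpS6 to 0.016 without the length trend, and RpS6 to 0.07 with the yolk covariate. The cause was not tested. The GAL4 motif count in promoters was not run, since no promoter sequence was used here. Genes with few counts carry wide counting error, and their fold changes depend on the prior count.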
